A study of Mus musculus with 12 samples.

Results

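The response of NIH-3T3 fibroblasts to rosiglitazone was measured with the wild-type form of PPARG2 in the cells, on 6 of the 12 arrays of the series. NIH-3T3 is an established line of mouse embryonic fibroblasts. The cells had been transduced with a lentivirus carrying wild-type PPARG2 and were grown in medium with serum and blasticidin. They received 20 µM rosiglitazone or an equal volume of its vehicle DMSO for 24 h, with 3 arrays a side, numbered 1 to 3 as the 3 independent experiments of the labels. The other 6 arrays carried the same design with the receptor mutant E157D and served here to set the spread and as a comparison. No group lacked a transduced receptor, and the sources used here do not state whether the transduced cells were pools or single clones or how many transductions were made, so p-values measure the spread between these cultures. All probes detected at a p under 0.05 on at least 3 of the 12 arrays were taken, which left 18921 of 45281 probes. With 1 probe for each named gene these made 13006 features, 10082 under a gene symbol and 2924 unnamed.

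PPARγ is a nuclear receptor that binds DNA together with a retinoid X receptor, and fatty acids and thiazolidinediones such as rosiglitazone are its ligands. Its second isoform is the one of fat cells, where it drives adipocyte differentiation and the storage of fat. In fibroblasts that do not make it, adding the receptor together with a ligand is a classical way to start the fat cell program. Its known target genes code for lipid droplet coats, lipases, fatty acid carriers and secreted factors such as adiponectin.

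On the 6 wild-type arrays 16633 to 17288 probes (36.7% to 38.2%) were detected. Across features, arrays of the same group correlated at 0.988 to 0.992, and DMSO with rosiglitazone arrays at 0.966 to 0.978. The 3 probes for Pparg were below detection on every array, so the amount of receptor was not measured, and the deposited annotation does not say whether they match the transgene. Of 12 fibroblast markers 11 were detected on all 6 wild-type arrays and 1, Fap, on none, which bears out the labelled cell type. Their summed normalized intensity was 67675 to 75187 with DMSO and 31462 to 42713 with rosiglitazone, and 10 of the 11 were lower, with a median log2 change of -0.84. Of 12 leukocyte and macrophage markers with a probe 10, Ptprc and Adgre1 among them, were on none of the 6 arrays, and of 12 mast cell and granulocyte markers 10 were on none, Kit and Cpa3 among them. In RNA of a whole culture, fewer cells of a type and less RNA per cell cannot be told apart.

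Rosiglitazone changed 26.7% of the features at a Benjamini-Hochberg adjusted p under 0.05 (limma), 12.3% higher and 14.4% lower, or 1597 and 1876 features. Most changes were small. The median was 0.65 for the higher and -0.62 for the lower features on the log2 scale, against -0.03 over all features, and 662 and 837 of them changed by less than 1.5-fold. A change of at least 2-fold was called for 294 higher and 253 lower features, 4.21% of all tested. At the far end 49 features rose at least 4-fold and 13 at least 8-fold, while 11 fell at least 4-fold and 0 at least 8-fold. In the 3 experiments taken one by one the median of the higher features was 0.68, 0.61 and 0.65, and that of the lower ones -0.69, -0.58 and -0.61. Of the 3473 called features 3461 had the same sign in all 3 experiments. The arrays of the groups did not overlap for 3397 of them, a separation found in 40.5% of all features. The features were called from these same arrays, so their agreement between experiments was set in large part by the choice. Leaving out rosiglitazone array 1 lowered the number of falls from 1876 to 1234. Scaling the arrays by their medians in place of quantiles gave 1399 rises and 1102 falls, so the larger number of falls depends on the normalization.

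**Figure D1:**
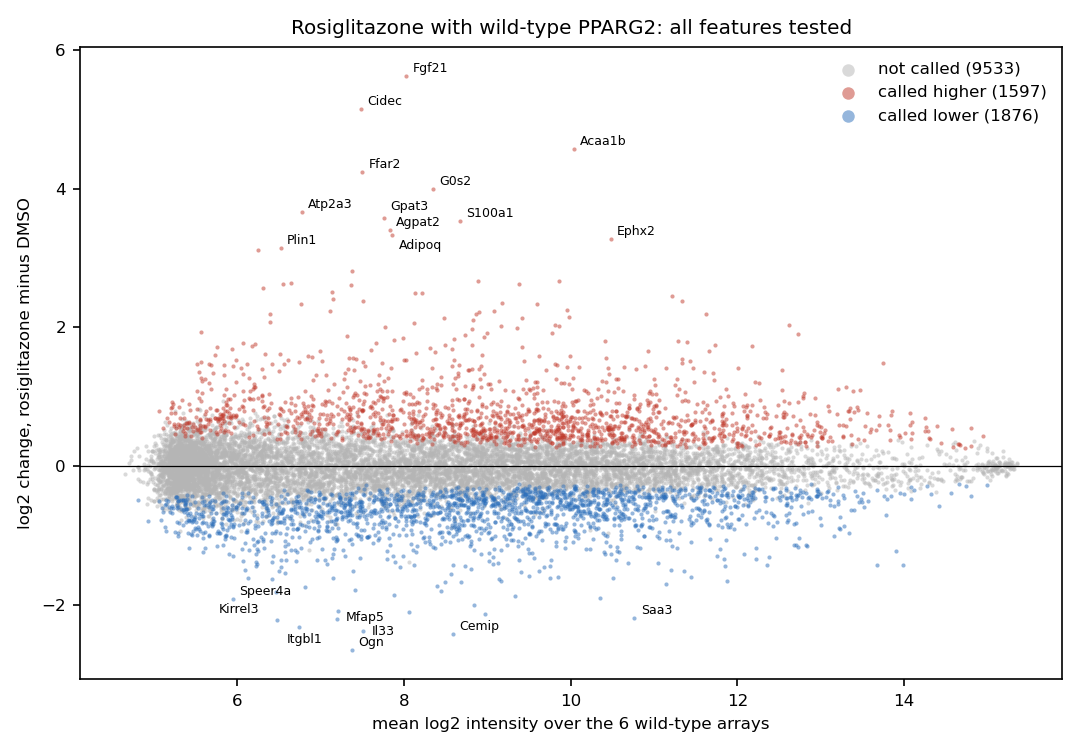
Log2 change with rosiglitazone (rosiglitazone minus DMSO, vertical axis) of the 13006 features tested in cells with wild-type PPARG2, against their mean log2 intensity over the 6 arrays (horizontal axis). Red points are the 1597 features called higher and blue points the 1876 called lower; the fitted rises reach 5.63, for a gene undetected in DMSO, and the falls -2.66.

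In what follows, array values are log2 of the background-corrected, normalized intensity, given for arrays 1, 2 and 3 of each group, and changes are log2 rosiglitazone minus DMSO with the standard error of the fit (n = 3 arrays a group). A probe's values are compared only with values of the same probe. A gene not detected on any DMSO array has only a bound there and is given as at least N-fold higher, measured from the lowest level at which probes were detected. Sizes depend on the background step: with the deposited intensities uncorrected, or with the authors' processed values, 54 and 52 of the 192 called genes named here changed by a size more than 1.5 times smaller, and none by a size more than 1.5 times larger. "Rose" and "fell" are used for called features. Counts of list members stand against 12.3% called higher and 14.4% called lower over all features.

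Lipid droplet genes were among the strongest rises. Of 14 tested genes of droplet coats and lipolysis 10 rose and 1 fell, with a median of 0.77, and 4 more, Plin5 and Cidea among them, did not pass the detection filter. Cidec, which sits at contacts between droplets and fuses them, read 4.95, 4.83 and 4.95 on the DMSO arrays and 10.36, 9.72 and 10.10 on the rosiglitazone arrays. The rosiglitazone arrays lay far above the DMSO arrays, all 3 of which were below detection, and Cidec was at least 24.3-fold higher (adjusted p = 4.81e-08). Plin1, the coat protein through which lipolysis is controlled in fat cells, gave 4.83, 4.75 and 5.29 on the DMSO arrays and 8.29, 7.83 and 8.17 on the rosiglitazone arrays. It too was undetected in DMSO, and was at least 6.22-fold higher. G0s2, an inhibitor of the triglyceride lipase ATGL, went from 6.31, 6.31 and 6.44 to 10.52, 10.13 and 10.41 and so rose 16-fold. Pnpla2, which codes for that lipase, went from 10.09, 10.00 and 9.87 to 12.76, 12.20 and 12.36, a rise of 2.45 ± 0.14. The inhibitor and the enzyme it acts on thus both rose. Plin2, the droplet coat of most cell types, went from 11.97, 11.56 and 11.77 to 13.88, 13.59 and 13.55, a rise of 1.91 ± 0.18. Plin3 moved the other way, by -0.53 ± 0.12, a call that was lost with median scaling. Hilpda, a further inhibitor of ATGL, differed by -0.13 ± 0.11 and Bscl2, the seipin of droplet formation, by 0.30 ± 0.13, and neither passed. With only probes detected on all 12 arrays the list kept 5 rises, since Cidec, Plin1 and others are then left out.

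**Figure D2:**
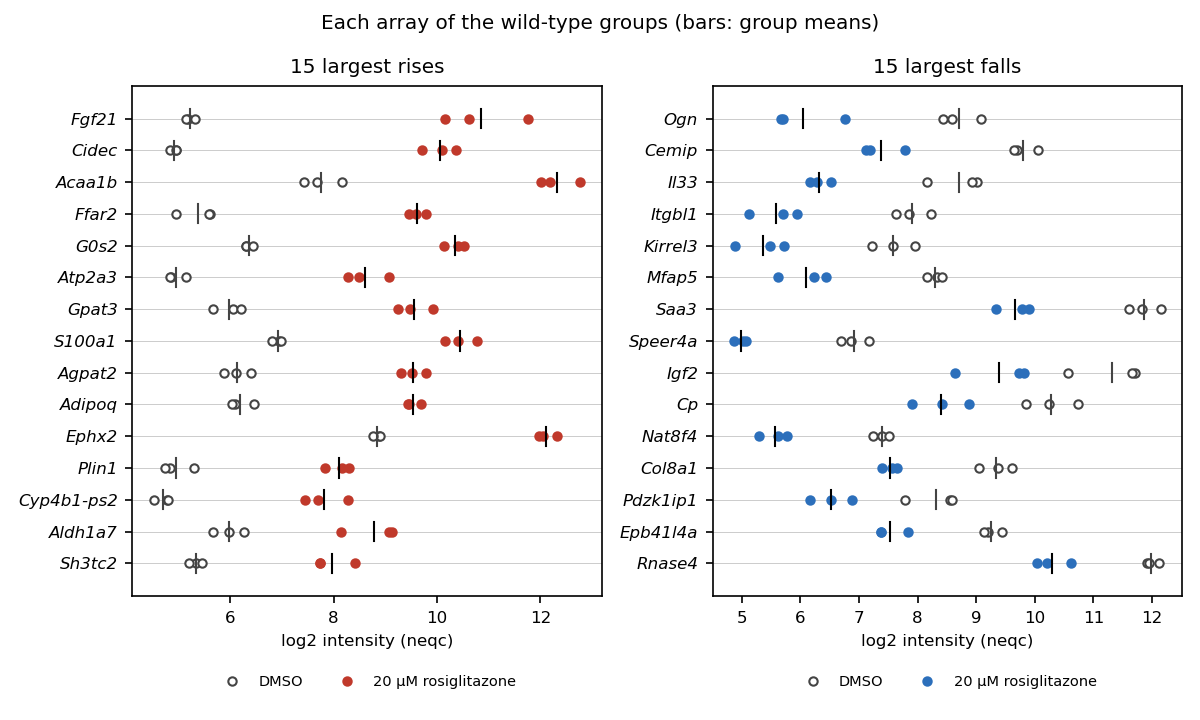
Log2 intensity (horizontal axis) of each wild-type array for the 15 largest rises (left) and the 15 largest falls (right) among named features whose groups do not overlap; open circles are DMSO arrays, filled circles rosiglitazone arrays and vertical bars group means. Fgf21 and Cidec, both undetected in DMSO, have the widest plotted gaps, and the arrays of a group spread more for Igf2 and Saa3 than for Ephx2 or S100a1.

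Each acylation step from glycerol 3-phosphate to triglyceride had a gene that rose. Of 13 tested genes of this path 8 rose and 1 fell, with a median of 0.62. Gpat3, which adds the first acyl chain, gave 5.67, 6.05 and 6.22 on the DMSO arrays and 9.93, 9.47 and 9.25 on the rosiglitazone arrays. Agpat2, which adds the next one and whose loss in humans causes lipodystrophy, gave 5.88, 6.41 and 6.12 on the DMSO arrays and 9.79, 9.31 and 9.51 on the rosiglitazone arrays. Both sets of 3 arrays were well apart, and the rises were 3.57 ± 0.18 and 3.40 ± 0.20. A further probe of each gene moved alike, by 3.33 and 3.24. Dgat2 and Dgat1 complete the triglyceride by separate enzymes. Dgat2 went from 7.71, 7.44 and 7.90 to 9.94, 9.19 and 9.42, a rise of 1.83 ± 0.28, and Dgat1 from 7.83, 7.85 and 7.82 to 9.61, 9.13 and 9.36, a rise of 1.53 ± 0.19. Agpat3 (0.58 ± 0.26) and Lpin2 (-0.35 ± 0.22) did not pass. Among the genes not measured here were Gk and Pck1, which supply glycerol 3-phosphate. With only probes detected on all 12 arrays the list kept 5 rises.

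Uptake genes were mixed. Of 14 tested 7 rose and 2 fell, and the median was 0.38. Lpl, the lipase that frees fatty acids from lipoproteins, went from 12.84, 12.67 and 12.67 to 13.90, 13.89 and 13.81, a rise of 1.15 ± 0.09. Angptl4, a secreted inhibitor of that lipase, rose too, by 1.48 ± 0.14, from arrays at 13.12, 13.08 and 12.82 in DMSO and 14.53, 14.42 and 14.52 with rosiglitazone. Aqp7, the glycerol channel of fat cells, went from 6.77, 5.91 and 6.29 to 9.22, 8.22 and 8.69, a rise of 2.38 ± 0.24. Fabp5, a cytosolic fatty acid carrier, rose by 1.88 ± 0.22, and Fabp4, its fat cell relative, was undetected in DMSO and at least 1.74-fold higher (adjusted p = 0.000766). Ffar2, a receptor for short-chain fatty acids, was detected on 2 of 3 DMSO arrays and went from 4.94, 5.61 and 5.59 to 9.79, 9.47 and 9.60, a rise of 4.24 ± 0.19. Lrp1, an endocytic receptor, fell, by -0.59 ± 0.15. The fatty acid transporter Slc27a1 differed by -0.37 ± 0.27 and did not pass, and Cd36 was below detection on every array. With only probes detected on all 12 arrays 4 members of this list rose.

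A direct repeat of the half-site AGGTCA with 1 base between the repeats is the element that PPARγ and its retinoid X partner are known to bind. These letters, AGGTCA, then any base, then AGGTCA again, were searched on both strands, with up to 2 mismatches, in RefSeq promoters of GRCm38.p6 (250 bases before to 50 after the annotated start). They were found for 1190 of 27025 genes (4.40%) and for 276 of 8226 tested genes with a promoter (3.36%). Among genes that rose at least 2-fold 12 of 199 held a match (6.03%), and among those that fell as far 5 of 146 (3.42%). In the lipid lists 3 of 21 genes of fatty acid oxidation did, 2 of 27 of peroxisomes, 1 of 14 of lipid droplets and 1 of 9 of uptake. The windows of 60 bases below are from genes of the fat lists that rose and held a match before the start, picked after their changes were known; each match carries 2 mismatches, is in capitals and is written on the strand of the gene. They lie at chr4:41048156-41048215, chr4:86670248-86670307, chr2:103485321-103485380 and chr9:55512284-55512343, all on the minus strand.
Aqp7: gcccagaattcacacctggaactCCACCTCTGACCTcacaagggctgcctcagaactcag
Plin2: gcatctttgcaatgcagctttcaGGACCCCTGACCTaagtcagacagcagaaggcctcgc
Cat: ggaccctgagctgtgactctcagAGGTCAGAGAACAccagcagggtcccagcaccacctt
Etfa: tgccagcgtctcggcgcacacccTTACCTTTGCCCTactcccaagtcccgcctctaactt
The match ended 43, 212, 191 and 64 bases before the start (for Aqp7, one of its annotated starts), in that order. It is a description of letters, not of binding. These promoter windows are short and leave out enhancers, where much of the receptor's binding is known to lie. Cat, the catalase of peroxisomes, rose by 1.25 ± 0.18, and Etfa, an electron carrier of fatty acid oxidation, by 0.53 ± 0.11.

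Of 10 tested genes of adipokines and metabolic hormones 4 rose and 3 fell. Fgf21, a hormone of fasting liver and of fat, gave 5.18, 5.14 and 5.33 on the DMSO arrays and 11.76, 10.61 and 10.16 on the rosiglitazone arrays. Its rosiglitazone arrays were spread over more than 1 log2 unit but stood far from the DMSO arrays, which were all below detection, so it was at least 41.9-fold higher (adjusted p = 5.92e-07). Adipoq, the gene of adiponectin, went from 6.09, 6.03 and 6.46 to 9.43, 9.46 and 9.69, a rise of 3.34 ± 0.15, and was detected on all 6 wild-type arrays. Nampt, an enzyme of NAD synthesis that is also secreted, rose by 0.75 ± 0.15. Cpe, which trims peptide hormones, fell, by -0.81 ± 0.11. Lep and Retn, the genes of leptin and resistin, were below detection on the wild-type arrays. The number of falls was 1 without DMSO array 3, rosiglitazone array 2 or rosiglitazone array 3, and with probes detected on all 12 arrays 2 members rose and 1 fell. Of 16 brown fat genes only 5 were tested, and Ucp1, Cidea, Dio2 and Prdm16 did not pass the filter. Ppargc1a, a coactivator that is abundant in brown fat, went from 6.26, 6.38 and 6.50 to 7.48, 7.47 and 7.23, a rise of 1.01 ± 0.16.

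Genes that act on or beside the receptor had rises and falls in equal number. Of 30 tested adipogenic transcription factors and coregulators 6 rose and 6 fell, with a median of 0.07. These were 20% and 20% of the list, against 12.3% and 14.4% over all features. Rxra, the retinoid X receptor that pairs with PPARγ, gave 7.05, 6.76 and 6.40 in DMSO and 6.30, 6.94 and 6.60 with rosiglitazone, groups that overlap, and a difference of -0.12 ± 0.19 (adjusted p = 0.685). Rxrb differed by 0.12 ± 0.13 and Ppard, a related receptor, by 0.12 ± 0.10. Ppargc1b, a coactivator of nuclear receptors, went from 7.84, 8.21 and 7.77 to 9.73, 9.76 and 9.57, a rise of 1.74 ± 0.15. Cebpg rose by 1.02 ± 0.10. Klf6 fell, by -0.85 ± 0.17, Gata2, which holds back fat cell differentiation, by -0.81 ± 0.18, and Ebf3 by -0.68 ± 0.13. Cebpa, the partner of PPARγ in mature fat cells, and Ucp2 did not pass the filter.

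Genes that mark fat cell precursors fell. Of 12 tested 10 fell and 0 rose, and the median was -0.73. Pdgfra, the growth factor receptor of mesenchymal precursors, went from 12.35, 12.85 and 12.92 to 10.26, 11.54 and 11.36, a fall of -1.65 ± 0.33, although a second kept probe of the gene differed by only -0.03. Rosiglitazone array 1 lay lowest, and the groups did not overlap. Zfp521, a repressor of the fat cell fate, changed by -1.16 ± 0.27 and Cd34, a surface marker of precursors, by -0.93 ± 0.14. Tcf7l2, an effector of Wnt signals, differed by -0.11 ± 0.20 and did not pass. Pdgfra is also one of the fibroblast markers whose summed level fell. How much of the fall in precursor genes goes with that of fibroblast markers at large was not tested.

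In mitochondrial fatty acid oxidation, the stepwise cutting of fatty acids to acetyl-CoA, 21 of 26 genes rose and 0 fell, with a median of 0.81. The median was 1.00, 0.76 and 0.80 in experiments 1, 2 and 3. Crat, which moves acetyl groups onto carnitine, rose by 1.59 ± 0.20. Acadvl, the first dehydrogenase for the longest chains, went from 11.27, 11.25 and 11.39 to 12.87, 12.65 and 12.64, a rise of 1.42 ± 0.10, and Acadl, the one for long chains, rose by 1.42 ± 0.13. Acaa2, the thiolase that ends each round, went from 10.73, 10.64 and 10.42 to 12.16, 12.03 and 12.05, a rise of 1.48 ± 0.16. Slc25a20, the carrier that brings acylcarnitines into the matrix, rose by 1.08 ± 0.12. Entry, dehydrogenation and cleavage each had genes that rose, while Echs1, the hydratase for short chains, differed by 0.15 ± 0.11 and Acad9 by 0.16 ± 0.14. Acot2, a thioesterase that frees fatty acids in the matrix, rose by 2.24 ± 0.18, a second probe of it by 0.47, and its near copy Acot1 differed by -0.05 ± 0.11; cross-binding between the copies was not tested.

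Peroxisomes, which shorten very long chains and break down hydrogen peroxide, had 16 of 33 genes higher and 1 lower, with a median of 0.37. Acaa1b, a peroxisomal thiolase, gave 8.16, 7.42 and 7.67 on the DMSO arrays and 12.77, 12.01 and 12.19 on the rosiglitazone arrays, the largest rise among genes detected on all 6 arrays at 4.57 ± 0.36. Its close copy Acaa1a rose as well, by 0.94 ± 0.11, a gene picked here for its likeness, and cross-binding was not tested. Ephx2, the soluble epoxide hydrolase that breaks down lipid epoxides, went from 8.87, 8.90 and 8.75 to 12.33, 12.05 and 11.98. Its arrays lay close together in each group, and the rise was 3.28 ± 0.13. Pex16 and Pex11a act in the making and division of peroxisomes. Pex16 went from 8.35, 7.86 and 7.92 to 10.08, 9.80 and 10.00, a rise of 1.91 ± 0.13, and Pex11a rose by 1.43 ± 0.19. Idh1, which supplies NADPH, differed by 0.01 ± 0.12, and Pex6, an import factor, by 0.18 ± 0.11.

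Fuel entry into the citric acid cycle rose. Of 26 genes 17 rose and 2 fell, and the median was 0.66. Pcx, pyruvate carboxylase, which refills the cycle and is needed for fat synthesis in adipocytes, went from 7.94, 7.81 and 7.65 to 10.14, 9.94 and 9.98, a rise of 2.22 ± 0.14. Idh3a, the catalytic subunit of the NAD-linked isocitrate dehydrogenase, went from 8.27, 8.45 and 8.37 to 10.55, 10.17 and 10.34, a rise of 1.99 ± 0.12, and by 2.80 with a second probe. Pdhb of the pyruvate dehydrogenase complex rose by 1.43 ± 0.15. Pdp1, a phosphatase that switches this complex on, fell, by -1.02 ± 0.20, and Pdk4, a kinase that switches it off and a known PPAR target, differed by 0.24 ± 0.14 on arrays at 11.46, 11.80 and 11.51 in DMSO and 12.05, 11.90 and 11.55 with rosiglitazone. Idh3g, a regulatory subunit beside Idh3a, differed by 0.13 ± 0.11.

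The respiratory chain moved as a broad, shallow shift. Of 68 tested subunits of the chain and of ATP synthase 50 rose and 0 fell, with a median of only 0.49, and 63 had a positive change. Cycs, cytochrome c, went from 11.98, 11.40 and 11.43 to 13.91, 13.49 and 13.50 and stood apart from the rest at 2.03 ± 0.19, followed by Cyc1 of complex III at 1.21 ± 0.10 and Atp5k of ATP synthase at 0.99 ± 0.18. Ndufb6 of complex I rose by 0.80 ± 0.09. Atp5b, the catalytic subunit of ATP synthase, differed by 0.03 ± 0.10 and did not pass. Of 70 mitochondrial ribosomal proteins 36 rose and 1 fell (median 0.40). In contrast 0 of 51 cytosolic ribosomal proteins rose and 5 fell, and their median was -0.08. The 5 falls were 9.8% of the list, under the 14.4% over all features. The number of falls was 2 without DMSO array 2, 3 without DMSO array 3, 1 without rosiglitazone array 1 and 0 with median scaling.

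Genes of mitochondrial biogenesis and protein import followed the same course, with 29 of 46 higher, 0 lower and a median of 0.54. Ppargc1b led the list. Lonp1, a matrix protease, rose by 1.21 ± 0.16 and Timm8a1, an import chaperone, by 1.25 ± 0.20. Tomm40, the pore of the outer membrane, rose by 1.27 ± 0.14, but a second probe of it differed by 0.20. Fis1, a fission factor, differed by -0.23 ± 0.11. Esrra, the nuclear receptor that works with the coactivators Ppargc1a and Ppargc1b on mitochondrial genes, went from 9.99, 9.84 and 9.87 to 11.28, 10.64 and 11.03, a rise of 1.08 ± 0.15. Among the carriers of the inner membrane 11 of 27 rose and 5 fell, a number of falls that was 2 or 3 with any array left out and 1 with median scaling. Slc25a10, which exchanges dicarboxylates, went from 8.80, 8.72 and 8.89 to 10.98, 10.69 and 10.83, a rise of 2.03 ± 0.15, and Slc25a33, which carries pyrimidine nucleotides, rose by 1.45 ± 0.14. Slc25a45 fell, by -0.89 ± 0.11.

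NRF1 is a factor known to act on nuclear genes of the respiratory chain. Its motif, GCGCA and GCGC with any 1 base between them, searched on both strands without mismatches in the same promoters, was found for 1402 of 27025 genes (5.19%), for 966 of 8226 tested genes (11.7%) and for 15 of 58 respiratory chain genes with a promoter (25.9%). Of the respiratory chain genes that were called 11 of 43 held it (25.6%). Mitochondrial ribosomal proteins held it in 12 of 62 promoters (19.4%), and in 3 of the 31 that were called. Genes of biogenesis and import held it in 6 of 41 (14.6%). Windows are shown for called members with large changes, picked after the changes were known, with the match in capitals, at chr11:120484531-120484590 on the plus strand and chr5:108434415-108434474 and chr1:55088268-55088327 on the minus strand.
Mrpl12: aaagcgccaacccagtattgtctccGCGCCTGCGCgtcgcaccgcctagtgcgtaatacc
Atp5k: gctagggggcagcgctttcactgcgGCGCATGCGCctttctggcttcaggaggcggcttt
Hspd1: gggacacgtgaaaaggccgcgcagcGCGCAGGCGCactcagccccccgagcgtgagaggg
The match ended 71, 40 and 49 bases before the start, for Hspd1 one of its annotated starts. Mrpl12, a mitochondrial ribosomal protein, rose by 1.11 ± 0.12 and Hspd1, the chaperonin of the matrix, by 0.77 ± 0.13. Genes that rose at least 2-fold held the motif in 17 of 199 promoters (8.54%), fewer than the tested genes at large.

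Pathways that make lipid from acetyl-CoA were little changed. In fatty acid synthesis and desaturation 3 of 19 genes rose and 0 fell, with a median of 0.03. The rises were 15.8% of the list, near the 12.3% over all features. Fads3, of the desaturase family, went from 9.13, 8.97 and 9.26 to 10.18, 10.20 and 10.29, a rise of 1.10 ± 0.11, and Hsd17b12, an enzyme of chain elongation, rose by 0.74 ± 0.13. Acly, which makes cytosolic acetyl-CoA, differed by -0.24 ± 0.12 and Fads1 by -0.20 ± 0.10. None of the 18 tested cholesterol synthesis genes was called in either direction with limma, 1 had an unadjusted p under 0.05, their changes lay between -0.33 and 0.32, and the median was -0.16. Sqle, the epoxidase of this pathway, gave 12.36, 12.54 and 12.54 in DMSO and 12.18, 12.46 and 12.21 with rosiglitazone. Of 21 tested genes of glycolysis and of the hypoxia response 7 rose and 2 fell. Egln3, an oxygen-sensing hydroxylase, went from 7.77, 7.77 and 7.80 to 10.04, 9.83 and 9.77, a rise of 2.10 ± 0.11, while a second probe of it differed by 0.50. Vegfa, an angiogenic factor, rose by 1.10 ± 0.12. Insulin signalling had 1 rise, Irs2, an adaptor of the insulin receptor (0.89 ± 0.16), against 4 falls among 24 genes. Igf1r fell by -1.05 ± 0.13 and Pik3r1, a regulatory subunit of PI 3-kinase, by -0.76 ± 0.12. The 4 falls were 16.7% of that list, near the 14.4% over all features.

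The branch of the stress response that runs through ATF4 and CHOP rose, while few chaperones of the endoplasmic reticulum did. Stress kinases are known to turn on ATF4, which raises genes for amino acid supply, and CHOP. Of 26 tested genes 20 rose and 0 fell, with a median of 0.85, or 0.75 with undetected groups at the detection floor. Trib3, a pseudokinase that restrains ATF4, went from 8.85, 8.84 and 9.02 to 11.15, 10.98 and 11.02, a rise of 2.14 ± 0.11. Chac1, which breaks down glutathione, went from 9.41, 9.68 and 9.44 to 11.60, 11.43 and 10.93, a rise of 1.81 ± 0.16, and Nupr1, a small stress-induced chromatin protein, from 10.39, 10.52 and 10.25 to 12.51, 12.02 and 12.03, a rise of 1.80 ± 0.14. The arrays of the groups were apart for all 3. Ddit4, an inhibitor of mTORC1 that ATF4 is known to raise, differed by -0.01 ± 0.14. Of 26 tested ER chaperones and genes of the unfolded protein response 2 rose and 0 fell, with a median of 0.01. Dnajb9, a cochaperone, was the clear exception, going from 8.79, 8.71 and 8.99 to 10.58, 10.43 and 10.23, a rise of 1.59 ± 0.14. P4hb differed by -0.02 ± 0.09 and Hsp90b1, the chaperone GRP94, by -0.21 ± 0.16.

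Genes of amino acid supply rose too. In transport and in serine, proline and one-carbon synthesis 12 of 26 genes rose and 2 fell. Slc1a5, a glutamine carrier, was undetected in DMSO and at least 1.95-fold higher (adjusted p = 0.000349). Mthfd2, a mitochondrial enzyme of one-carbon metabolism, went from 10.91, 10.54 and 10.49 to 12.02, 11.97 and 11.72, a rise of 1.26 ± 0.14, and Asns, asparagine synthetase, from 12.47, 12.18 and 12.18 to 13.59, 13.21 and 13.19, a rise of 1.05 ± 0.14. Slc38a2, another carrier, fell by contrast, by -1.05 ± 0.15. Of 33 aminoacyl-tRNA synthetases 17 rose and 1 fell (median 0.43), led by Iars (0.92 ± 0.19), Aars (0.91 ± 0.12), Mars1 (0.86 ± 0.14) and Wars (0.80 ± 0.09).

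The composite element that ATF4 and C/EBP factors are known to bind has the letters TGATGNAA. Searched on both strands without mismatches, it was found in promoters of 1219 of 27025 genes (4.51%) and 225 of 8226 tested genes (2.74%). Among the ATF4 and CHOP genes 8 of 21 with a promoter held it (38.1%), all of them called, as were 17 of the 21. Among the synthetases 5 of 24 held it (20.8%), and among the genes of amino acid supply 4 of 21. The windows below show it in capitals, on the strand of the gene, in called list members with large changes. They lie at chr7:45615596-45615655, chr7:126625547-126625606 and chr6:7693210-7693269 on the minus strand and chr2:119351023-119351082 on the plus strand.
Fgf21: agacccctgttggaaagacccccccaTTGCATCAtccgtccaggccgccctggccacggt
Chac1: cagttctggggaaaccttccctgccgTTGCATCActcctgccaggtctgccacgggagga
Nupr1: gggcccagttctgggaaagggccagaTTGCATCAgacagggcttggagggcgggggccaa
Asns: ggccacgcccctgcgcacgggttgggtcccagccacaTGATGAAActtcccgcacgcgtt
The first 3 hold the same 8 letters in the reverse orientation, and Asns holds the forward one. The element ended 131, 185, 102 and 15 bases before the start. Among genes that rose at least 2-fold 8 of 199 held the element (4.02%), and among those that fell as far 7 of 146 (4.79%). Both shares were above the 2.74% of tested genes, and that of rises was no higher than that of falls. These shares were not tested. Fgf21, named above among the hormones, is on the ATF4 list too.

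Redox genes did not move as a block. Of 41 genes of the NRF2 response and of glutathione metabolism 14 rose and 9 fell, with a median of 0.08, and without DMSO array 3 the falls numbered 5, with median scaling 4. Cbr3, a carbonyl reductase, went from 10.37, 10.52 and 10.71 to 12.77, 12.62 and 12.79, a rise of 2.19 ± 0.15, and Hmox1, haem oxygenase, from 9.22, 8.62 and 8.62 to 10.80, 10.60 and 10.78, a rise of 1.91 ± 0.28. Mgst3, a membrane-bound glutathione transferase, rose by 1.09 ± 0.13. On the other side Prdx4, the peroxiredoxin of the endoplasmic reticulum, fell, with -0.97 ± 0.11, and so did the glutathione transferases Gstt3 (-0.80 ± 0.15) and Gstm2 (-0.75 ± 0.13). Iron genes had 10 rises and 2 falls among 30. Tfrc, the transferrin receptor, went from 9.21, 8.83 and 8.46 to 11.46, 11.03 and 10.78, a rise of 2.26 ± 0.25, Abcb6, a porphyrin transporter, rose by 1.55 ± 0.19 and Alas1, the first enzyme of haem synthesis, by 0.94 ± 0.11. The ferritins Fth1 (0.05 ± 0.09) and Ftl1 (0.08 ± 0.10) did not pass. Of 37 proteasome genes 17 rose and 0 fell (median 0.27), but these calls were near the threshold, with 8 left without DMSO array 2, DMSO array 3 or rosiglitazone array 1 and 11 without rosiglitazone array 3.

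Several of the strongest rises lie outside the lipid lists. S100a1, a calcium-binding protein known from heart muscle, went from 6.94, 6.81 and 6.99 to 10.78, 10.15 and 10.40, a rise of 3.53 ± 0.14. Atp2a3, a calcium pump of the endoplasmic reticulum, was undetected in DMSO and gave 4.86, 5.15 and 4.83 on the DMSO arrays and 9.07, 8.27 and 8.48 on the rosiglitazone arrays, at least 8.88-fold higher (adjusted p = 4.61e-07). Cyp4b1-ps2 and Cyp4b1, of the cytochrome P450 family, moved together. Cyp4b1-ps2, annotated as a pseudogene, was at least 5.09-fold higher, and Cyp4b1 itself, detected on 1 of 3 DMSO arrays, rose by 2.19 ± 0.26; their probes may bind each other's RNA, which was not tested. Aldh1a7, an aldehyde dehydrogenase close to Aldh1a1, went from 5.98, 5.66 and 6.28 to 8.14, 9.14 and 9.08, a rise of 2.81 ± 0.26. Sh3tc2, a protein of endosome recycling, was detected on 1 of 3 DMSO arrays and rose by 2.64 ± 0.17. Tpsab1, a mast cell tryptase, rose by 2.38 ± 0.26 on arrays at 10.38, 9.89 and 10.17 in DMSO and 13.19, 12.09 and 12.29 with rosiglitazone, and Prg2, a granule protein of eosinophils, by 0.61 ± 0.21, a call lost without any one of the DMSO arrays, rosiglitazone array 1 or rosiglitazone array 2, and with the authors' processed values. These are the 2 tested of 12 mast cell and granulocyte markers, whose summed intensity was 1342 to 1722 with DMSO and 4774 to 9815 with rosiglitazone. The other 10, Kit and Cpa3 among them, were undetected on all 6 arrays.

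Many genes of the extracellular matrix fell. Of 19 tested proteoglycans and elastic fibre genes 12 fell and 0 rose (median -0.64). Ogn, osteoglycin, a small leucine-rich proteoglycan, went from 8.44, 9.09 and 8.60 to 5.71, 6.77 and 5.66, the largest fall at -2.66 ± 0.38; a second kept probe of Ogn differed by -0.25. Mfap5, of microfibrils, went from 8.33, 8.42 and 8.16 to 5.61, 6.45 and 6.23, a fall of -2.20 ± 0.19, and Lum, lumican, from 7.49, 8.17 and 8.23 to 5.86, 6.40 and 6.78, a fall of -1.61 ± 0.32. Dcn, decorin, went from 14.24, 14.51 and 14.41 to 12.58, 13.32 and 12.97, a fall of -1.43 ± 0.17, with its other probes at -2.16 to -1.75. No groups overlapped for these 4 genes. Rosiglitazone array 1 lay lowest for Mfap5, Lum and Dcn and for 8 of the 12 that fell in this list. Across the matrix, adhesion and contractile lists it did so for 46 of 77 (59.7%), close to its 58.7% among all features called lower. By list the share ran from 33.3% of the 3 hyaluronan genes that fell to 87.5% of the 8 collagen chains. Prelp, of the same family, differed by -0.21 ± 0.18 and did not pass.

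Collagens did not move as a block. Of 22 chains 8 fell and 3 rose, with a median of -0.23. That median was -0.54, -0.13 and -0.34 in experiments 1, 2 and 3. Rosiglitazone array 1 lay lowest for 7 of the 8 chains that fell and highest for the 3 that rose. Without this array 8 chains fell and 2 rose. The short-chain collagen gene Col8a1 went from 9.62, 9.04 and 9.38 to 7.40, 7.65 and 7.57, a fall of -1.81 ± 0.21. Col1a2, of the main fibre collagen, fell as well, with -0.88 ± 0.18. Of the basement membrane chains Col4a6 fell, with -1.38 ± 0.23, whereas Col4a1 rose by 0.63 ± 0.14 and Col18a1 by 0.68 ± 0.14. Lamb1, a laminin chain of the same membranes, rose by 0.83 ± 0.19, the 1 rise among 24 adhesive glycoproteins, of which 10 fell. Fn1, fibronectin, went from 12.32, 12.68 and 12.72 to 10.60, 11.58 and 11.20, a fall of -1.45 ± 0.22, and Itgbl1 from 7.64, 8.23 and 7.85 to 5.12, 5.94 and 5.71, a fall of -2.32 ± 0.33, with 1 rosiglitazone array below detection. Of 18 genes that process collagen 6 fell and 0 rose, 3 with median scaling. Rosiglitazone array 1 lay lowest for 5 of these 6, and without it 4 fell. Lox, which crosslinks fibres, went from 14.32, 14.65 and 14.57 to 12.94, 13.51 and 13.41, a fall of -1.22 ± 0.15, and Bmp1, which cleaves procollagen, from 11.16, 11.05 and 10.92 to 9.78, 10.00 and 9.90, a fall of -1.15 ± 0.11, although other probes of Bmp1 ranged from -1.09 to 0.46. Serpinh1, the collagen chaperone, differed by -0.07 ± 0.09.

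Of 8 tested hyaluronan genes 3 fell and 0 rose, 2 with median scaling. Has2, a synthase of hyaluronan, went from 10.42, 10.23 and 10.48 to 8.55, 9.08 and 8.94, a fall of -1.52 ± 0.27, and Cemip, which is needed to break hyaluronan down, from 10.06, 9.69 and 9.65 to 7.79, 7.19 and 7.13, a fall of -2.43 ± 0.27. Of 26 matrix proteases and inhibitors 11 fell and 1 rose. Inhibitors were among the larger falls, with Timp3 at -1.43 ± 0.29, Timp2 at -1.03 ± 0.16 and Reck at -1.05 ± 0.21, and so was the plasminogen activator Plat, which went from 9.88, 9.65 and 9.49 to 8.53, 8.38 and 8.54, a fall of -1.19 ± 0.12. Other kept probes of Timp3 and Reck differed by as little as -0.07 and -0.17. Of 21 integrins and cadherins 11 fell and 0 rose. That count was 7 without DMSO array 1 or rosiglitazone array 3, 5 without DMSO array 3, and 6 without rosiglitazone array 1 or with median scaling. Itga11, a collagen receptor of fibroblasts, fell most, with -1.27 ± 0.19.

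Contractile genes and targets of YAP fell. Of 29 contractile and SRF target genes 16 fell and 0 rose (median -0.44), but 8 fell with median scaling. Myl9, a regulatory light chain of myosin, went from 7.46, 7.80 and 7.66 to 6.35, 6.14 and 6.37, a fall of -1.35 ± 0.25, and Csrp2, a LIM protein of smooth muscle, and Actg2, smooth muscle gamma actin, changed by -1.13 ± 0.18 and -1.02 ± 0.15. Myl6, the essential light chain, differed by -0.20 ± 0.12. Of 24 CCN family genes and YAP targets 11 fell and 0 rose (median -0.54). Ccn2, also called connective tissue growth factor, went from 9.98, 10.23 and 10.31 to 8.27, 8.96 and 8.71, a fall of -1.53 ± 0.19, and Ankrd1 from 9.65, 9.03 and 9.21 to 7.94, 7.82 and 7.87, a fall of -1.42 ± 0.17. The receptor tyrosine kinase gene Axl fell as well, with -1.14 ± 0.13. Wwtr1, which codes for TAZ, a relative of YAP, differed by 0.04 ± 0.18.

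In the TGF-beta and BMP pathway 15 of 37 genes fell and 2 rose, with a median of -0.43. Among the ligands Tgfb3 fell, with -1.13 ± 0.15, and Inhba, the subunit of activin A, rose, going from 7.33, 7.23 and 6.43 to 9.13, 8.37 and 7.96 (1.49 ± 0.34). Bmp5 was undetected in DMSO and at least 1.49-fold higher (adjusted p = 0.00431). The secreted BMP antagonist Nbl1 went from 9.89, 10.06 and 10.04 to 8.14, 8.47 and 8.40, a fall of -1.66 ± 0.12. Tgfbi, a matrix protein induced by TGF-beta, went from 12.15, 12.24 and 12.34 to 10.35, 10.77 and 10.83, a fall of -1.60 ± 0.14. The receptors Tgfbr1 (-0.20 ± 0.15) and Bmpr2 (-0.28 ± 0.14) did not pass, though Bmpr2 was called lower in the fit with the replicate number as a block. In the Wnt pathway 7 of 24 genes fell and 1 rose, shares of 29.2% and 4.17% against 14.4% and 12.3% over all features. Only 3 fell without DMSO array 3 or without rosiglitazone array 1 and 4 with median scaling. The secreted modulators Dkk3 (-1.37 ± 0.21) and Sfrp1 (-1.30 ± 0.17) had the largest falls there.

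Growth factors moved in both directions. Of 32 ligands and receptors of the FGF, PDGF, EGF and VEGF families 5 rose and 14 fell. Fgfrl1, an FGF receptor that lacks a kinase domain, went from 9.54, 9.71 and 9.69 to 11.35, 11.23 and 11.05, a rise of 1.56 ± 0.12. Hgf, hepatocyte growth factor, fell, going from 9.66, 9.49 and 9.24 to 8.12, 8.10 and 7.83 (-1.45 ± 0.23), and so did Ptn, pleiotrophin, from 14.63, 14.78 and 14.69 to 12.89, 13.65 and 13.30 (-1.42 ± 0.24), and Vegfd (-1.20 ± 0.20). Vegfb, whose relative Vegfa rose, differed by 0.03 ± 0.12. In the insulin-like growth factor axis 4 of 15 rose and 5 fell, 2 rising without DMSO array 2 or DMSO array 3. Igfbp4, a binding protein that restrains these factors, went from 7.67, 7.50 and 7.24 to 9.45, 9.05 and 9.02, a rise of 1.70 ± 0.18, and Igf2 went from 10.57, 11.70 and 11.65 to 8.64, 9.73 and 9.82, a fall of -1.91 ± 0.45 with the widest error among the 15 largest falls. Pappa, the protease that cleaves Igfbp4, fell, with -0.62 ± 0.12.

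Falls outnumbered rises among genes of inflammation. Of 20 tested cytokines, acute phase and NF-kB genes 7 fell and 1 rose. Il33, a cytokine released from damaged cells, went from 9.02, 8.16 and 8.93 to 6.29, 6.16 and 6.53, a fall of -2.38 ± 0.32, and Saa3, an acute phase protein of fat and fibroblasts, from 12.15, 11.83 and 11.60 to 9.34, 9.90 and 9.78, a fall of -2.19 ± 0.34. Tnfrsf11b, the decoy receptor osteoprotegerin, went from 9.78, 9.34 and 9.55 to 8.07, 8.18 and 7.95, a fall of -1.49 ± 0.12. Ptx3, a pattern recognition protein, fell too, with -1.25 ± 0.16. Rela, a subunit of NF-kB, differed by -0.07 ± 0.09, and Nfkbia, its inhibitor, by -0.18 ± 0.16. Sod2, the superoxide dismutase of mitochondria, was the rise, at 0.84 ± 0.10. The chemokine Cxcl12 went from 12.15, 12.71 and 12.67 to 10.55, 11.60 and 11.35, a fall of -1.34 ± 0.27; of 13 chemokines tested 5 fell, 3 without any one of DMSO arrays 1 and 2 or the rosiglitazone arrays, and 8 in the fit with the replicate block.

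Interferon-stimulated genes had 13 of 32 members lower and 1 higher. The count of falls was 7 without DMSO array 2, 8 without DMSO array 3 or rosiglitazone array 1, and 7 with median scaling. Ifit2, an antiviral protein that binds RNA, went from 9.40, 9.16 and 9.48 to 7.62, 8.04 and 7.72, a fall of -1.55 ± 0.16, and Gbp2, a guanylate-binding protein, from 10.29, 10.69 and 10.45 to 8.95, 9.22 and 8.95, a fall of -1.44 ± 0.14. Ifitm2 differed by -0.16 ± 0.10. Of 21 genes of complement, coagulation and prostanoids 9 fell and 1 rose. C1s1, a protease of the first complement step, went from 9.81, 10.03 and 10.02 to 8.09, 8.53 and 8.34, a fall of -1.63 ± 0.17. Alox5ap, which feeds arachidonic acid to leukotriene synthesis, fell, with -1.55 ± 0.22, and Cd55, which shields cells from complement, with -1.19 ± 0.24; both were undetected on 1 of the 3 rosiglitazone arrays.

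Mitosis genes fell a little and DNA replication genes barely moved. Of 42 mitosis genes 16 fell and 0 rose, with a median of -0.33. The count was 11 to 14 with an array left out and 5 with median scaling. Birc5, survivin, went from 11.28, 11.17 and 11.11 to 10.50, 10.54 and 10.81, a fall of -0.57 ± 0.11. Nusap1, a spindle protein, fell, with -0.66 ± 0.13, although its other probes ranged from -0.24 to 0.31. Cdc20, the activator of the anaphase-promoting complex, gave 11.81, 12.16 and 12.20 in DMSO and 11.68, 11.78 and 11.93 with rosiglitazone and did not pass (-0.26 ± 0.14). Of 43 DNA replication genes 2 rose and 1 fell, and the median was 0.02. Mcm4, of the replicative helicase, differed by -0.29 ± 0.15 and Rpa1, which coats single-stranded DNA, by 0.02 ± 0.12. Of 35 cell cycle inhibitors and p53 targets 6 rose and 5 fell, shares of 17.1% and 14.3% that are near the 12.3% and 14.4% over all features. The falls numbered 3 without DMSO array 2, DMSO array 3 or rosiglitazone array 1 or with median scaling, and 9 with the replicate block. Plk3, a stress kinase, rose, going from 7.94, 7.82 and 7.44 to 10.06, 9.05 and 9.15 (1.68 ± 0.25), as did Cdkn2c, the CDK inhibitor p18 (1.06 ± 0.14), and Sesn1 fell (-1.01 ± 0.16). Cdkn1a, the inhibitor p21 and a classical p53 target, differed by 0.22 ± 0.13.

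**Figure D3:**
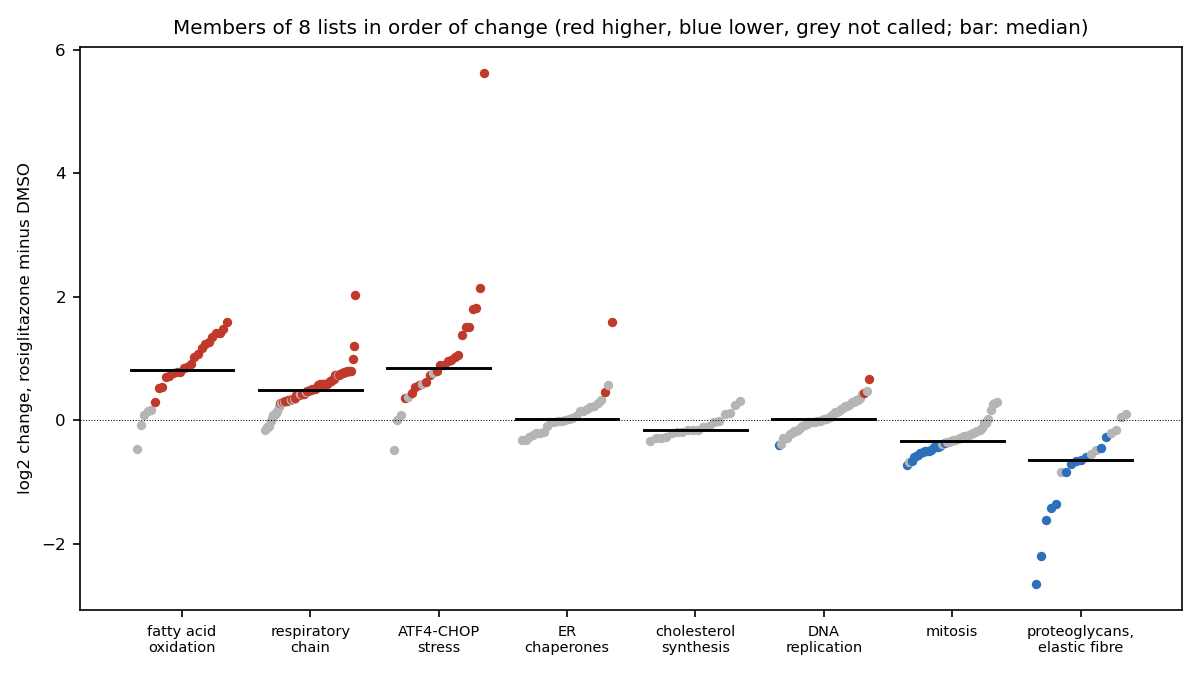
Log2 change (vertical axis) of every tested member of 8 lists, in order within each list; red points were called higher, blue points lower and grey points were not called, and black bars are list medians. Fatty acid oxidation and ATF4-CHOP genes are mostly red, with medians of 0.81 and 0.85, while ER chaperones, cholesterol synthesis and DNA replication lie around 0 and mitosis lies slightly below it.

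The cell cycle genes homology region, the letters TTTGAA searched on both strands, is an element of promoters that are active in G2 and mitosis. As a short motif it was common, found in promoters of 5466 of 27025 genes (20.2%) and of 1155 of 8226 tested genes (14.0%). It was found for 26 of 35 mitosis genes with a promoter (74.3%) and for 5 of 36 DNA replication genes (13.9%). Of the 14 mitosis genes that fell and had a promoter 9 held it (64.3%), so it did not set the fallen members apart from the rest of the list. Among genes that rose or fell at least 2-fold 18 of 199 and 28 of 146 held it. The windows, with the motif in capitals, are of mitosis genes that fell, at chr7:80294416-80294475 on the plus strand and chr10:69352913-69352972 on the minus strand.
Prc1: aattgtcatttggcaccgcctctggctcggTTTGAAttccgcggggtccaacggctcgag
Cdk1: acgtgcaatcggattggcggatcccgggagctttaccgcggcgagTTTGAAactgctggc
The motif ended 24 and 9 bases before the start, for Prc1 one of its annotated starts. Prc1, a bundler of spindle microtubules, fell, with -0.49 ± 0.11, and Cdk1, the mitotic kinase, with -0.44 ± 0.10, and both calls were lost with median scaling.

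Some features crossed the detection limit. In all 52 were undetected on the 3 DMSO arrays and detected on the 3 rosiglitazone arrays, of which 45 were called higher, and 74 went the other way, of which 54 were called lower. Besides those already named, Zbtb32, a zinc finger repressor of lymphocytes, was at least 4.38-fold higher, Mettl7b, a protein of lipid droplets, at least 3.1-fold and Ifrd1, a transcriptional regulator, at least 2.5-fold. Among the losses, Speer4a was at least 2.65-fold lower, Psd3 at least 1.87-fold and Stoml1 at least 1.82-fold. Of the 8 called rises with the brightest probes 6 were respiratory chain genes, among them Atp5g3 of ATP synthase (0.43 ± 0.10) and Cox5b of cytochrome oxidase (0.58 ± 0.11). Acta2, smooth muscle alpha actin, was among the brightest falls at -0.48 ± 0.11, a call that was lost with median scaling.

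Several large falls were in genes of no list. Kirrel3, an adhesion protein of the immunoglobulin family, changed by -2.22 ± 0.24 and was undetected on 1 rosiglitazone array, and Pdzk1ip1 changed by -1.79 ± 0.32. Cp, the copper-binding ferroxidase ceruloplasmin, fell, going from 10.73, 10.24 and 9.85 to 8.42, 8.88 and 7.90 (-1.87 ± 0.34), with other probes from -2.10 to -0.27. For Epb41l4a (-1.73 ± 0.16) and Rnase4 (-1.70 ± 0.16) a second kept probe differed by 0.15 and 0.05, so these falls belong to the brighter probe alone.

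**Figure D4:**
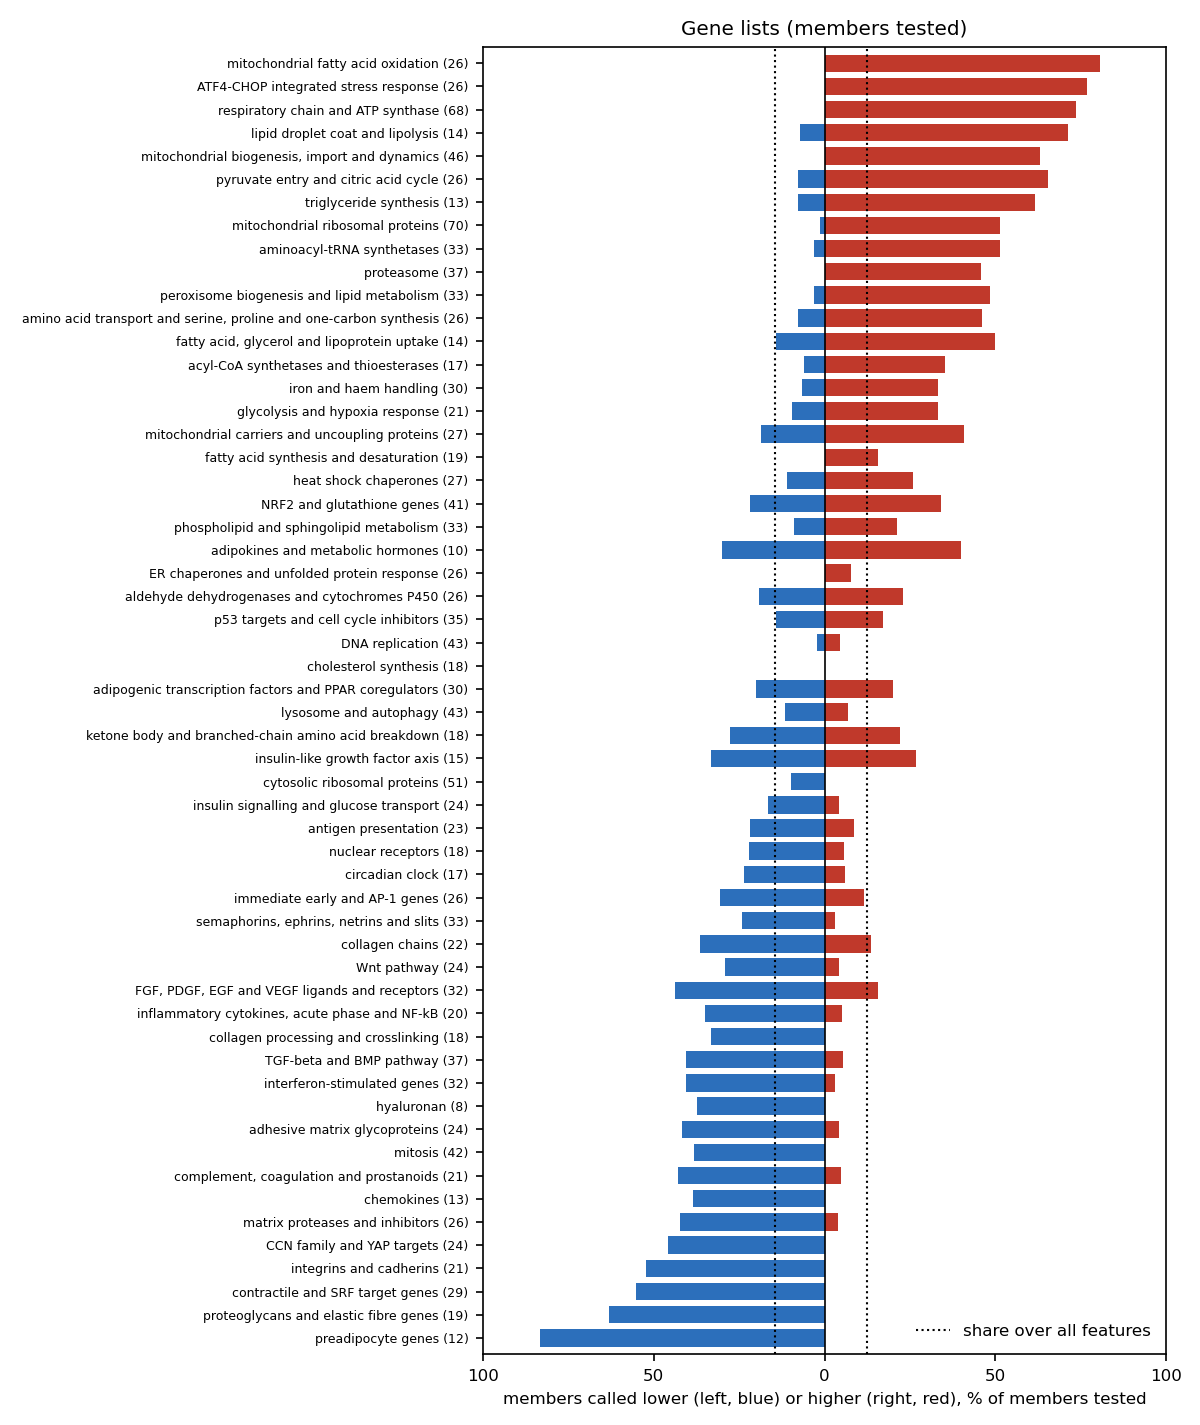
Share of the tested members of each gene list called lower (blue, to the left) or higher (red, to the right), in percent of members tested, with the number tested in brackets; dotted lines mark the 14.4% lower and 12.3% higher over all 13006 features. Lists of mitochondria, stress and fat storage lie at the top, and lists of matrix, contractile and precursor genes at the bottom; cholesterol synthesis has no call.

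The same genes were set against the response with the E157D receptor, whose arrays have their own DMSO controls. With E157D rosiglitazone changed 4.10% of features, and the 2 responses differed for 2.38% of features, or 310, by the test of the difference itself. That number was 186 without wild-type DMSO array 2, 184 without DMSO array 3 and 197 without rosiglitazone array 1, 196 without E157D DMSO array 1 or 2, 180 without E157D DMSO array 3 and 205 without E157D rosiglitazone array 2, and it was 471 with the replicate block. Of the 1597 features called higher with the wild-type receptor 192 rose less with E157D and 5 rose more, and of the 1876 called lower 70 fell less and 0 fell more. Features picked for their wild-type change are bound to look smaller elsewhere, so the direction of these counts is set in part by the choice. Their median change with E157D was 0.23 for the former and -0.26 for the latter.

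Within the lipid lists the difference was uneven. Agpat2 and, outside these lists, S100a1 changed by 0.13 ± 0.20 and -0.04 ± 0.14 with E157D. Their differences from wild-type were -3.28 ± 0.28 and -3.57 ± 0.20 (limma, adjusted p = 0.000109 and 1e-05). Agpat2 was detected on only 2 of 3 arrays in each E157D group. Plin1 and Aqp7 were undetected on all E157D arrays, so a fitted difference for them is not an exact size. Dgat1 (-0.04 ± 0.19 with E157D) and Lpl (0.16 ± 0.09) likewise differed between the receptors, at adjusted p = 0.0124 and 0.00273. Others did not pass the test of the difference. Plin2 changed by 1.93 ± 0.18 with E157D, a difference of 0.02 ± 0.25, Ephx2 by 3.94 ± 0.13, a difference of 0.67 ± 0.18 that passed with probes detected on all 12 arrays and with an intensity trend in the fit, Angptl4 by 1.86 ± 0.14, a difference of 0.37 ± 0.20, and Acaa2 by 1.29 ± 0.16, a difference of -0.19 ± 0.22. A difference that does not pass does not show equal responses. Outside fat storage, Trib3 (-1.67 ± 0.16), Chac1 (-1.44 ± 0.23), Slc25a10 (-2.12 ± 0.21) and Plat (1.32 ± 0.17) responded less with E157D (adjusted p = 0.000186, 0.00619, 0.00022 and 0.00234), while for most matrix genes, such as Mfap5 (0.73 ± 0.27) and Ccn2 (0.27 ± 0.27), the difference was not called.

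**Figure D5:**
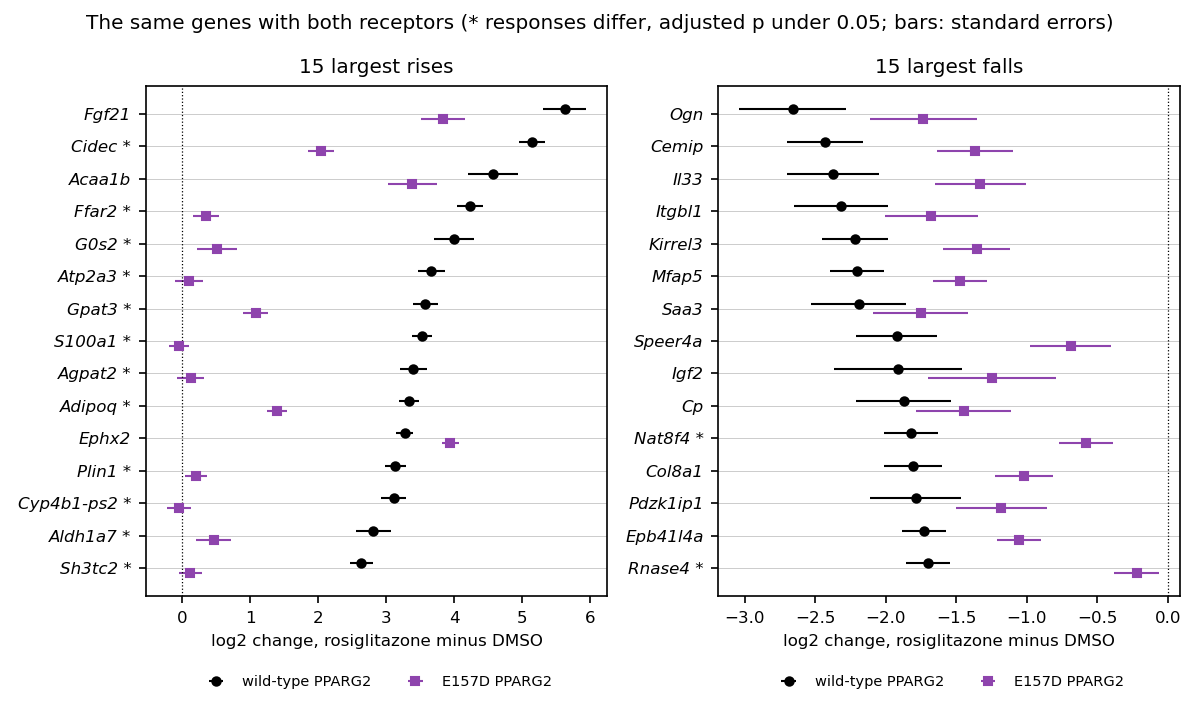
Log2 change with rosiglitazone (horizontal axis) for the 15 largest rises (left) and 15 largest falls (right) of the wild-type receptor, with wild-type (black circles) and E157D (purple squares) and bars of 1 standard error; an asterisk marks genes whose 2 responses differ at an adjusted p under 0.05. Of the rises 12 carry an asterisk and of the falls 2, of which Nat8f4 lost its call without any one of 10 arrays, and Ephx2 is the only one of the 30 whose E157D change is the larger.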

How the data were processed

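Total RNA was labelled with biotin and hybridised to 1-colour Illumina bead arrays, per the labels' protocols. Per the file headers, each array came with 2 deposited columns, a probe's signal intensity and its detection p-value, and the intensities were not normalized between arrays. A deposited table of the authors' processed intensity, made by a method that the sources used here leave unstated, ranked the probes of each array as the raw values did and served only as an alternative, on the log2 scale. Intensities were corrected with normexp (negative controls inferred from the deposited detection p-values), raised by an offset of 16, quantile-normalized and turned into log2 values by neqc (limma 3.58.1, R 4.3.3). Quantile normalization hides any shift shared by all genes. Of 18921 kept probes, 13894 were detected on all 12 arrays. A gene's value is that of its brightest kept probe, named from the platform annotation, where 34885 probes have 1 symbol, 18 several and 10378 none. Of these 34807 were matched by gene number to RefSeq (GRCm38.p6), and no symbol changed. Of the called features 1258 had further kept probes, and for 5 of them such a probe was called in the opposite direction.

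One linear model with 4 group means was fitted to all 12 arrays (lmFit and eBayes, 8 residual and 3.9 prior degrees of freedom), with contrasts for rosiglitazone against DMSO with each receptor and for their difference. The median standard error was 0.154, and the number of arrays limits the precision. A bound (at least N-fold) compares the detected group's mean with a floor, which takes on each array the lowest log2 value of a detected probe, or the probe's own value where that is higher, and averages the 3. The steps were first tested on simulated data with known changes. Same-numbered DMSO and rosiglitazone arrays correlated at 0.169, 0.129 and 0.239 in their deviations from group means, and differently numbered ones at -0.18 to -0.02, so the numbers pair these arrays at the limit of 0.1, as judged from the data, since the labels do not say so. The blocked fit is an alternative.

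The members and the gene lists were chosen with earlier results of these data known. Genes were named by a rule: the 15 largest rises and falls among called named features whose groups do not overlap, up to 4 called members a direction and 2 uncalled bright members of each list, the 8 largest bounds in each direction, the 8 brightest calls in each direction and 11 fixed genes. Clone names were skipped, 2 among rises and 6 among falls. Acaa1a, Etfa, Hspd1, Prc1 and Cdk1 and all promoter windows were picked after their values were seen. Promoters came from RefSeq, 32851 for 27025 genes, and were matched by symbol. Alternatives were no background correction, median scaling, an offset of 50, other filters on detection, every probe on its own, the 6 wild-type arrays alone, the replicate block, an intensity trend with robust moderation, the authors' processed values, and leaving out each array.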

Additional observations from a re-analysis of the deposited data

Results flagged for a closer look

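Among the 15 largest rises and the 15 largest falls, 14 genes responded differently with the 2 receptors by the test of the difference (limma, adjusted p from 1e-05 to 0.0341). For the 12 rises the change with E157D was smaller than with wild-type, by log2 values, E157D minus wild-type, of -3.88 ± 0.27 for Ffar2, -3.57 ± 0.20 for S100a1, -3.56 ± 0.28 for Atp2a3, -3.48 ± 0.42 for G0s2, -3.28 ± 0.28 for Agpat2 and -3.15 ± 0.25 for Cyp4b1-ps2. The others were Cidec at -3.11 ± 0.27, Plin1 at -2.94 ± 0.23, Sh3tc2 at -2.51 ± 0.24, Gpat3 at -2.49 ± 0.26, Aldh1a7 at -2.35 ± 0.37 and Adipoq at -1.94 ± 0.21. For the 2 falls the difference was positive, a smaller fall with E157D, of 1.24 ± 0.27 for Nat8f4 and 1.48 ± 0.22 for Rnase4. These genes had been picked for large changes with the wild-type receptor, which sets the direction in part. Atp2a3, Cyp4b1-ps2, Cidec and Plin1 were undetected in wild-type DMSO. All E157D arrays were below detection for Ffar2, Atp2a3, Cyp4b1-ps2, Plin1 and Sh3tc2, and the E157D DMSO arrays for G0s2, Cidec, Aldh1a7 and Adipoq. Their differences are fitted values of signals in part below detection and not exact sizes: under the alternatives Plin1 lay between -3.11 and -1.17, Atp2a3 between -3.73 and -1.58, Cyp4b1-ps2 between -3.33 and -1.23 and Cidec between -3.34 and -2.13, with each call kept. The call of Nat8f4 was lost without any one of 10 of the 12 arrays (adjusted p up to 0.0883) and with no detection filter, and held in 9 of 20 alternatives. A second kept probe of Nat8f4 and of Rnase4 changed less with the wild-type receptor, by -0.55 and 0.05.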

How the results depend on the processing

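The count of calls for rosiglitazone with the wild-type receptor, 3473, lay between 2342 and 3186 with 1 array left out, that of rises, 1597, between 1108 and 1443, and that of falls, 1876, between 1234 and 1743. The falls numbered 1102 with median scaling in place of quantiles. The replicate block gave 3899 calls, the 6 wild-type arrays alone 2594 and every kept probe on its own 4454. The number of features whose response differed between the receptors, 310, was 653 without background correction, 194 with median scaling, 471 with the replicate block, 611 with an intensity trend and robust moderation, 678 with the authors' processed values and 180 to 306 with 1 array left out. The median change over all features moved from -0.03 to 0.01 with median scaling. Of the 232 genes named in the text and followed through the alternatives none was reversed, and 222 kept their side of the threshold under every setting in which they were measured; the block ended no call among them and added that of Bmpr2. Of 3162 list counts and medians under alternatives 2591 stayed within 1.5 times or 1 SD of the value given. The causes were not tested. Probes near the negative controls have only bounds. Called changes of named genes became smaller by over 1.5 times for 54 of 192 without background correction, 52 with the authors' processed values and 7 with an offset of 50, and none became larger by as much under any setting. With the authors' values Gpat3 changed by 2.08, Agpat2 by 2.01, Adipoq by 1.99, Sh3tc2 by 1.07, Cyp4b1 by 0.81, Kirrel3 by -0.84, Itgbl1 by -0.96 and Myl9 by -0.61.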

Other observations

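Falls made up 24.2% of the tested guidance molecules, 23.5% of clock genes and 30.8% of immediate early genes, against 14.4% of all features; these shares were not tested. Of 33 semaphorins, ephrins, netrins and slits 8 fell and 1 rose, with a median of -0.12. Sema3f, a repellent for axons and vessels, went from 10.26, 10.55 and 10.39 to 9.08, 9.34 and 9.31, a fall of -1.15 ± 0.14, and the ephrin genes Efna1 and Efna4 changed by -0.99 ± 0.19 and -0.91 ± 0.18, while Sema3a went the other way, by 1.02 ± 0.23. The 1 rise became 3 without DMSO array 1, with median scaling or with the replicate block. Of 17 clock genes 4 fell and 1 rose, among them the period genes Per1 (-0.72 ± 0.14) and Per2 (-0.58 ± 0.14) and Nr1d2, a repressor of the clock (-0.60 ± 0.14). The clock rises numbered 0 to 3 with 1 array left out. Among 26 immediate early genes 8 fell and 3 rose. Fosl2, a partner of JUN, went from 11.95, 11.98 and 11.67 to 10.62, 10.80 and 10.66, a fall of -1.18 ± 0.16, Gadd45b and Junb changed by -1.08 ± 0.16 and -0.66 ± 0.17, and Arc and Atf3 rose by 0.97 ± 0.24 and 0.96 ± 0.24.

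Among 18 nuclear receptors Esrra was the 1 rise, and 4 fell, 2 with median scaling. Vdr, the vitamin D receptor, went from 8.74, 8.65 and 8.82 to 7.71, 7.47 and 7.56, a fall of -1.16 ± 0.14, with other probes from -1.53 to -0.59. Breakdown of ketone bodies and branched-chain amino acids was divided, with 4 of 18 genes higher and 5 lower. Bckdhb and Dbt, subunits of the branched-chain keto acid dehydrogenase, rose by 1.11 ± 0.18 and 1.08 ± 0.14. Later or parallel steps went down, with Ivd at -0.66 ± 0.16, Acadsb at -0.80 ± 0.16 and Oxct1, which starts the use of ketone bodies, at -0.64 ± 0.10. In heat shock the chaperone Hspa4 rose by 1.11 ± 0.19 and the small heat shock protein Cryab fell, with -0.94 ± 0.17. Wipi1 and Map1lc3b, which act in autophagosome formation, fell, with -1.06 ± 0.14 and -0.87 ± 0.15. In their lysosome and autophagy list 3 of 43 rose and 5 fell, 2 with median scaling. The shares of 6.98% higher and 11.6% lower were under the 12.3% and 14.4% over all features.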
